A study of Mus musculus with 12 samples.

Results

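The 8 genes described here, of the 188 genes measured in this study, encode cytokines and other mediators of inflammation, and they were taken by name from the spots of both array types. Il1a, Il1b, Il6, Il6st and Ptx3 lay among the 100 genes of the hypoxia arrays, and Ptgs2, Ccl2 and Csf3 among the 100 genes of the angiogenesis arrays. Each had 1 spot per array. The RNA came from the callus of mice with a closed femoral fracture that was held by fixation, collected at 7, 10 or 14 days from WT animals or from animals labelled HET for HIF-1a. The RNA of 3 animals was pooled for each genotype and day, with 1 array of each type hybridised per combination, 12 arrays in all. No group has a replicate, so every difference at a single day is a description of 2 arrays. Which allele was altered, and the strain and age of the mice, were not stated in the labels.

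Fracture healing opens with an inflammatory phase, in which interleukin-1, interleukin-6 and prostaglandins act before cartilage and then bone bridge the gap. The interleukin-1 ligands act through a shared receptor, and interleukin-6 signals through gp130, the receptor subunit encoded by Il6st that the whole interleukin-6 family uses. Ptx3 encodes a pentraxin released in inflamed tissue, Ptgs2 encodes the inducible cyclooxygenase COX-2, Ccl2 a chemokine that draws monocytes, and Csf3 the granulocyte colony-stimulating factor. In pooled whole callus, fewer cells of a type and less RNA per cell cannot be told apart.

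Il1a and Il1b followed opposite courses, and Il6 and Ptgs2 were brightest at day 10, as was every other member but Il1a. The promoters of these 4 genes are shown. They are the 250 bases before the RefSeq start in the mouse build GRCm38.p6, printed 5′ to 3′ on the gene's strand. Il1a lies at chr2:129309973-129310222 (minus strand), Il1b at chr2:129371140-129371389 (minus strand), Il6 at chr5:30012864-30013113 (plus strand) and Ptgs2 at chr1:150099781-150100030 (plus strand). Capitals mark every match, on either strand, to ACGTG or GCGTG (the hypoxia response element core), to GGG and CC parted by any 5 bases (an NF-kB-like pattern) or to TATAAA, the last added after the sequences had been read. Which of the promoters to print was settled after their matches had been seen.
Il1a: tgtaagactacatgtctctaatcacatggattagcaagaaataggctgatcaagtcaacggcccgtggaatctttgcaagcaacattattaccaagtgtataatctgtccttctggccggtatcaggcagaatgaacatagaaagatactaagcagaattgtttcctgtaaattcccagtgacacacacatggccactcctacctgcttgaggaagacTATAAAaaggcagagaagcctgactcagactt
Il1b: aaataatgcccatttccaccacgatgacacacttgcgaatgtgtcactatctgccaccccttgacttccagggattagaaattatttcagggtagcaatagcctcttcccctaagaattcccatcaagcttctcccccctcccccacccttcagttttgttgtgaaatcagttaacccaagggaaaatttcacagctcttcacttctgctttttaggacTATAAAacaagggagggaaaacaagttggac
Il6: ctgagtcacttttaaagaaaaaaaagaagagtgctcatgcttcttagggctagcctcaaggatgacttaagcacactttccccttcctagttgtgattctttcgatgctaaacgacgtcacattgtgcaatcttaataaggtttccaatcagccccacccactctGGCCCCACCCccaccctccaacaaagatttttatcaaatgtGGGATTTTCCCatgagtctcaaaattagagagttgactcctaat
Ptgs2: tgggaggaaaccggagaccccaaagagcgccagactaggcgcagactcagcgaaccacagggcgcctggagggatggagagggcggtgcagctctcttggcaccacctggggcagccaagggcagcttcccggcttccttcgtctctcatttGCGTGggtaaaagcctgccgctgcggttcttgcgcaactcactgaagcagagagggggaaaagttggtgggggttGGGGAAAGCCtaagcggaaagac
Il1a and Il1b each held TATAAA and none of the other 3 patterns. Il6 held 3 matches to the NF-kB-like pattern, of which GGGATTTTCC and GGATTTTCCC overlap as the same site read on both strands. Ptgs2 held GCGTG and the NF-kB-like pattern, with 1 match each. Of 32851 promoters of this length, 16.6% held ACGTG, 28.2% GCGTG, 45.8% the NF-kB-like pattern and 12.4% TATAAA. Il6st and Ptx3 held no match to any of the 4 patterns and are not printed, and Ccl2 and Csf3 were not examined for sequence.

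A gene was taken as above background where its spot was brighter than the brightest PUC18 or Blank spot of that array, the control spots with plasmid DNA or nothing. Of the 48 densities of these 8 genes, 30 were above that limit. Il6 passed it on 6 of 6 arrays, Il1b, Il6st, Ptx3 and Ptgs2 on 4, Ccl2 and Csf3 on 3, and Il1a on 2. At day 7 the limit was passed by Il6 in WT and by Il6, Ptx3 and Csf3 in HET, whereas at day 10 all but Il1a passed it in both genotypes. These counts went with array brightness. On the hypoxia arrays 27%, 56% and 42% of all genes passed in WT, in order of day, and 20%, 53% and 46% in HET. On the angiogenesis arrays the shares were 9%, 76% and 79% in WT and 12%, 91% and 44% in HET. The brightest control spot itself ranged from 12.7 to 805 on the hypoxia arrays and from 162 to 490 on the angiogenesis arrays. On the HET day 7 hypoxia array the dimmest spot stood at 248 and the median gene at 263, against 0 and 4.66 in WT. The HET day 7 densities of Il1a (318), Il1b (256) and Il6st (260) are to be read against that floor. Near the scanner's ceiling, set at 45701 (90% of the highest density on any array), stood 1 value, that of Il1a in WT at day 14. Il1a in HET at day 14 (45094) and Il6 in HET at day 10 (41858) lay just below it.

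**Figure D1:**
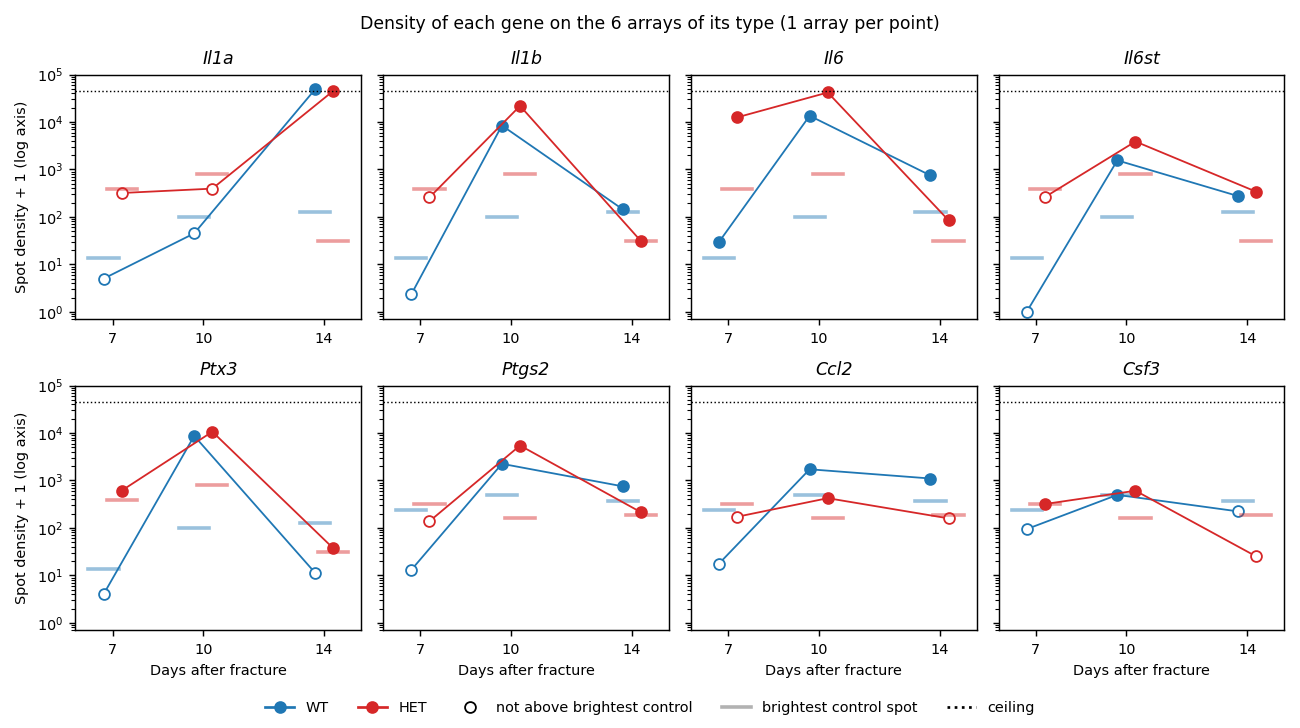
Spot density plus 1 (log axis) of the 8 genes against days after fracture, 1 array per point, in WT (blue) and HET (red). Filled points are above the brightest control spot of their array (short bars), open points are not, and the dotted line is the ceiling of 45701. Il1a is filled only at day 14, at 48703 and 45094, and the other 7 genes have their highest density of each genotype at day 10.

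Repeated spots of the reference genes on 1 array differed with a pooled standard deviation of 0.33 log2 units over 27 sets of spots. A wider spread came from genes measured on both array types. In the 13 gene and day pairs with a value on both, from 6 genes, the HET minus WT difference disagreed between array types by a median of 0.79 and by up to 2.02 normalized log2 units. It had the same sign in 6 of the 13, with differences of 0 counted as not the same. Whether 1 RNA pool served both array types is not stated. Hif1a, the targeted gene, had a density of 137 in WT and 5509 in HET at day 7 on the hypoxia arrays and was brighter in HET on the angiogenesis arrays at day 7 as well (25140 against 8037), so day 7 results are those of the arrays labelled HET. At days 10 and 14 Hif1a was dimmer in HET on both array types. On the hypoxia arrays it stood at 18939 against 30822 and at 4766 against 15394. On the angiogenesis arrays it stood at 6924 against 11449 and at 6574 against 11008, with normalized differences of -0.19 and 0. As to the labelled tissue, the bone matrix gene Col1a1 stood between 41175 and 49757 on the 6 hypoxia arrays. Of the bone matrix genes on the angiogenesis arrays, Sparc was above background on all 6. The other, Spp1, was below background at day 7 in both genotypes and above it at days 10 and 14. No gene of the cartilage list was among those measured.

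Il1a, one of the 2 interleukin-1 ligands, had the largest normalized change between successive days among the 8 genes. On the WT arrays its density ran from 3.99 (day 7) through 43.9 (day 10) to 48703 (day 14), and on the HET arrays from 318 through 393 to 45094. Both day 14 arrays were high and the 4 earlier arrays were below background. Among the 100 genes, Il1a ranked 69 and 70 by density at day 10 and 5 and 6 at day 14. The normalized day 14 minus day 10 difference was 9.55 log2 units with a standard error of 0.82, and limma's adjusted p was 0.018, in a comparison in which 16.4% of 73 genes passed. Since Il1a was below background at day 10, its change was at least 9.05 log2 units in WT and 8.90 in HET after normalization. Without it the bounds were 8.32 in WT and 5.76 in HET. The 2 genotypes differed at day 14 by -0.03 log2 units, at densities close to the ceiling. The spots listed on either side of Il1a were dim at day 14, with Igfbp1 at 18.3 and 23.6 and Il1b at 143 and 30.0 in WT and HET. The authors' deposited table gives Il1a at day 14 a ratio to Actb of 0.984 in WT and 0.912 in HET and holds no value for it on the other 4 arrays.

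Il1b, the other interleukin-1 ligand and the one released by activated macrophages, ran the other way. Its density was 1.33, 8428 and 143 in WT at days 7, 10 and 14, and 256, 21855 and 30.0 in HET. Both day 10 arrays were high, and both day 14 arrays were within a small margin of the brightest control spot, at 1.11 and 1.01 times its density. From day 10 to day 14 the normalized difference was -2.05 in WT and -4.24 in HET, in a comparison where 25% of 44 genes fell by 2-fold or more in both genotypes and 18.2% rose by as much. limma gave -3.15 with a standard error of 0.74 and an adjusted p of 0.079, which did not pass, whereas the adjusted p was 0.0018 with median scaling, 0.0021 with reference gene scaling and 0.013 without normalization. Il1b was below background at day 7. After normalization it was at least 0.91 log2 units higher at day 10 in WT and 1.44 in HET. The bounds without normalization were 7.75 and 7.26. For day 10 minus day 7 limma's adjusted p was 0.12. It was 0.00049 with median scaling, 0.0017 with reference gene scaling and 0.0077 without normalization.

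Il6 was the only one of the 8 genes above background on every array. In order of day, WT had densities of 28.6, 13516 and 745, and HET of 12510, 41858 and 83.6. HET was the brighter array at days 7 and 10 and the dimmer one at day 14. Relative to the brightest control spot of its own array, Il6 stood at 2.26, 136 and 5.80 in WT and at 32.0, 52.0 and 2.82 in HET, so on that scale WT was the higher at day 10. Its rank among the 100 genes was 19, 17 and 20 in WT and 13, 14 and 33 in HET. The normalized day 14 minus day 10 difference was -1.15 in WT and -4.96 in HET, and limma's adjusted p over both genotypes was 0.26. With median scaling the fit gave -3.71 and passed, with an adjusted p of 0.010.

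Ptx3 was, like Il1b, bright at day 10 and dim at day 14. The density in WT was 3.00, 8682 and 10.3, and in HET 609, 10636 and 36.3, at days 7, 10 and 14. Both genotypes were high at day 10, and at day 14 the WT array was below background and the HET array at 1.22 times the brightest control spot. From day 10 to day 14 Ptx3 differed by -2.59 or lower in WT and by -2.63 in HET. limma gave -3.55 with a standard error of 1.18 and an adjusted p of 0.13, which was 0.00033 with median scaling, 0.0022 with reference gene scaling and 0.015 without normalization.

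Il6st, the shared receptor subunit, stayed in a narrower range once it was above background. Its density was 0, 1552 and 273 in WT and 260, 3878 and 338 in HET at days 7, 10 and 14. Day 10 was highest in both genotypes, and the day 14 arrays held 2.12 and 11.4 times the brightest control spot. Its rank was 31 and 26 at day 10 and 26 and 24 at day 14 in WT and HET. The normalized day 14 minus day 10 difference was 0.66 in WT and 0.37 in HET, with an adjusted p of 0.33 by limma, but over both genotypes limma gave -2.41 with reference gene scaling (adjusted p = 0.028) and -2.91 without normalization (adjusted p = 0.019), both passing in the other direction.

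Of the 5 genes on the hypoxia arrays, Il1a was thus 2-fold or more above its day 10 level at day 14 in both genotypes, and 3 (Il1b, Il6 and Ptx3) were 2-fold or more below it. Of the 44 genes with a fold in both genotypes, 18.2% were higher by as much and 25% lower. With 1 background limit per array type, the count of members higher stayed at 1 and that of members lower became 0. The plot of the changes in WT against HET shows where the 5 genes lay among those 44. From day 7 to day 10, the comparison in which 5.26% of 19 genes were at least 2-fold higher in both genotypes, none of these 5 was counted after normalization. None of the 3 genes on the angiogenesis arrays was counted either, against 25% of 12 genes. With reference gene scaling 3 members were counted on the hypoxia arrays, where 62.2% of 45 genes were, and 3 on the angiogenesis arrays, where 81.9% of 72 were. Without normalization the members counted were 4 and 1, against 84.4% of 45 and 62.3% of 61 genes, and with median scaling 1 and 0, against 20.8% of 24 and 57.1% of 21.

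**Figure D2:**
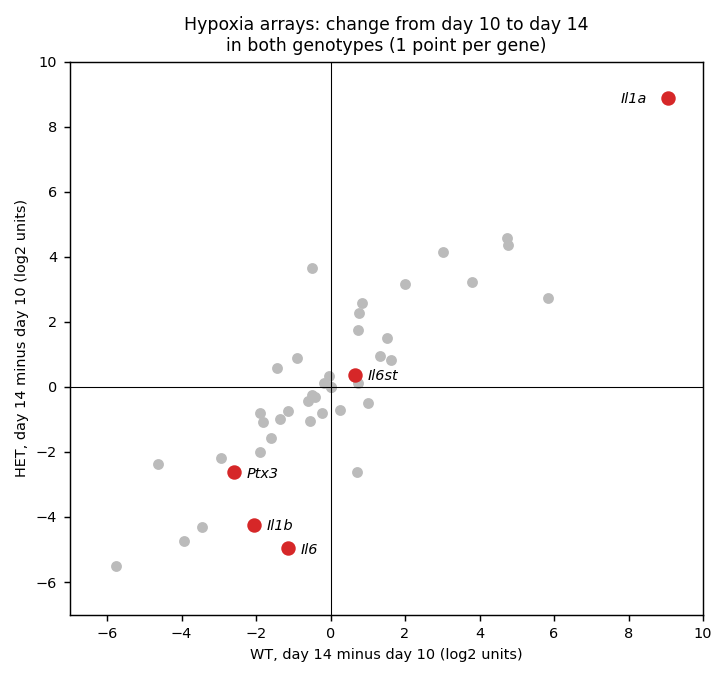
Day 14 minus day 10 difference in normalized log2 units in WT (x axis) and HET (y axis) for the 44 genes of the hypoxia arrays with a fold in both genotypes, the 5 mediator genes in red. Differences of genes below background on 1 array of a pair are bounds, among them both of Il1a, which lies at 9.05 and 8.90, apart from Il1b, Il6 and Ptx3 below 0 on both axes.

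Ptgs2, the COX-2 gene, had its highest density at day 10 in both genotypes. Its density was 11.98, 2241 and 749 in WT and 136, 5445 and 213 in HET at days 7, 10 and 14. Both day 7 arrays were below background, and HET was above WT at day 10 and below it at day 14. From day 7 to day 10, limma gave 2.87 with a standard error of 0.66 and an adjusted p of 0.025, where 32.3% of 96 genes passed. Without normalization Ptgs2 was at least 2.39 log2 units above day 7 in WT and 4.30 in HET. No fold could be given after normalization. The dimmest gene above background at day 7 stood higher on the normalized scale than Ptgs2 at day 10. From day 10 to day 14 the normalized difference was -0.89 in WT and -2.08 in HET, with an adjusted p of 0.54; of 45 genes, 2.22% were 2-fold or more below day 10 in both genotypes.

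The macrophage list had 2 of its 7 genes on these arrays, the scavenger receptor genes Msr1 and Cd36. Both were, like Ptgs2, brightest at day 10 in both genotypes. Neither was above background at day 7, when 9% of all genes of these arrays passed in WT and 12% in HET. The summed density of the pair in order of day was 32.3, 40820 and 8175 in WT and 226, 40179 and 14391 in HET. At day 14 both genes were brighter in HET than in WT, whereas Ptgs2 was dimmer in HET. The summed density of the 7 endothelial genes on these arrays was also highest at day 10, at 69465 in WT and 55068 in HET. Most of it came from Flt1, which stood at the ceiling on both arrays. The part of either list in the level of Ptgs2 was not tested. No gene of the neutrophil list was among those measured. Of 77 other genes above background on at least 2 angiogenesis arrays and not at the ceiling on most, those whose normalized values over the 6 arrays were most like Ptgs2 were the endothelial cadherin gene Cdh5 (Pearson's r = 0.88), Cd36 (0.87) and Msr1 (0.86), against a median r of 0.04. For Il6, among 57 genes of the hypoxia arrays, they were Htatip (0.86), Ppp2cb (0.82) and Sdh1 (0.75), against a median of 0.17. These are descriptions over 6 arrays that share their differences in brightness.

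Ccl2, the monocyte chemokine gene, had a density of 16.6, 1716 and 1097 in WT and of 170, 422 and 157 in HET at days 7, 10 and 14. The WT spot passed the background limit at days 10 and 14 and the HET spot at day 10 alone, and WT was the brighter array at both of these days. The day contrasts did not pass, with limma adjusted p of 0.80 for day 10 minus day 7 and 0.92 for day 14 minus day 10. With reference gene scaling the first of these was 4.65 in place of 0.23 and passed (limma adjusted p = 0.0042). Csf3 had densities of 93.2, 495 and 221 in WT and 317, 606 and 24.0 in HET. It was above background at 1.01 times the brightest control spot in WT at day 10, at 1.02 times in HET at day 7 and at 3.74 times in HET at day 10. In the limma fit Csf3 passed for day 10 minus day 7 at -4.82 (standard error 0.63, adjusted p = 0.0049), although its density was higher at day 10 in both genotypes. The value was -1.80 with median scaling (adjusted p = 0.074), 2.69 with reference gene scaling and 1.53 without normalization, so Csf3 had no direction that held across scalings. Among the genes of its array it ranked 12 in both genotypes at day 7, and 76 and 48 at day 10.

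**Figure D3:**
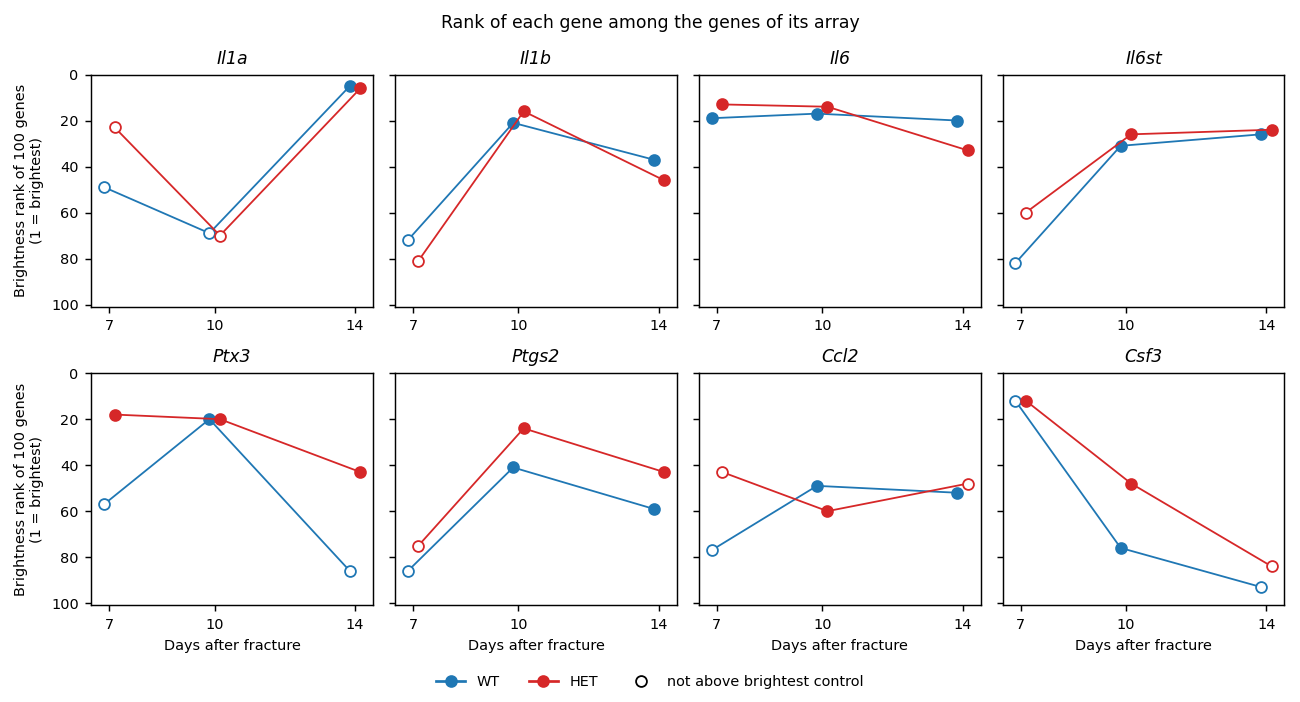
Brightness rank of the 8 genes among the 100 genes of their array (1 is the brightest, at the top) against days after fracture, in WT (blue) and HET (red), with open points for values not above background. Il1a moves from 69 and 70 at day 10 to 5 and 6 at day 14, and Il6 in HET from 14 to 33.

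Between genotypes, Il6 differed by at least 2-fold at each of the 3 days, in both directions, when each array was held to its own brightest control spot. After normalization it was 2.91 log2 units higher in HET at day 7 and 1.76 higher at day 10, and it differed by -2.05 at day 14. With 1 background limit for all hypoxia arrays, set by their brightest control spot, the day 7 difference was a bound of 0.41 and no fold could be given at day 14. Ptx3 was at least 1.93 higher in HET at day 7, and these were the 2 members of the hypoxia arrays with a fold at that day, against a background of 15.8% of 19 genes 2-fold or more higher and 10.5% lower. At day 10, Il1b and Il6 were at least 2-fold higher in HET, each by 1.76, while Il6st differed by 0.66 and Ptx3 by 0.00. The background there was 12.5% of 48 genes higher and 14.6% lower. On the angiogenesis arrays of day 10, Ptgs2 was 2.01 and Csf3 1.35 higher in HET and Ccl2 differed by -0.55, against 7.89% of 76 genes 2-fold or more higher and 13.2% lower. At day 14 Il6 alone passed 2-fold, with Il1b at -0.42, Il6st at 0.37 and Ptgs2 at 0.83, against a background on the hypoxia arrays of 17.8% of 45 genes lower and 15.6% higher. On the angiogenesis arrays, where Ptgs2 was the member with a fold, 8.7% of 46 genes were 2-fold or more higher. Of the differences past 2-fold, those of Il6 at days 7 and 14, of Ptx3 at day 7 and of Ptgs2 and Csf3 at day 10 lay on the same side of 0 under all 4 scalings in the plot of genotype differences. Under median scaling Il1b turned to -0.78, Il6 to -0.52 and Il6st to -0.85 at day 10, and the split of 4 higher and 0 lower members at that day became 2 and 1. Without normalization Csf3 differed by 0.22 at day 10. Ccl2 at day 10 differed by -1.85 with reference gene scaling and by -2.20 without normalization, past 2-fold in both. Ptgs2 at day 14 turned to -1.61 with reference gene scaling and to -1.58 without normalization.

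**Figure D4:**
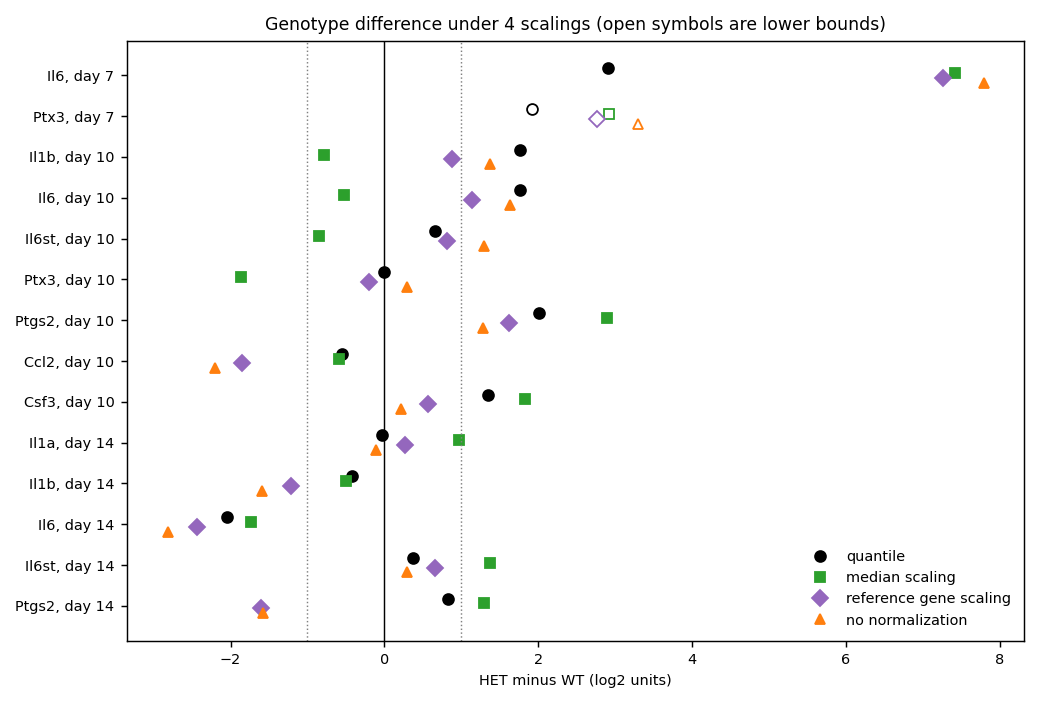
HET minus WT difference in log2 units for each gene and day with a fold, after quantile normalization, median scaling, reference gene scaling or none. Open symbols are lower bounds, dotted lines mark 2-fold, and Il6 at day 7 runs from 2.91 (quantile) to 7.79 (none) while Il6 and Il1b at day 10 lie on both sides of 0.

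Over the 3 days, none of the 8 genes passed limma's test of genotype, and neither did any other gene (0% of 73 on the hypoxia and 0% of 96 on the angiogenesis arrays, with 3 and 2 genes at an unadjusted p under 0.05). The adjusted p of the members ran from 0.75 to 0.94 on the hypoxia arrays and from 0.87 to 0.88 on the angiogenesis arrays. The mean difference of Il6 was 0.87 with a 95% confidence interval from -2.82 to 4.57. Ptx3 had a mean difference of 1.99 with an interval from -0.98 to 4.96, and was above background on 1 WT and 3 HET arrays. Il6st had the narrowest interval, from -0.07 to 1.45 around 0.69. For Ptgs2 the mean was 1.10, with an interval from -0.26 to 2.45.

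Other genes of inflammatory signalling were counted from a list of 38, of which 11 were on the angiogenesis and 4 on the hypoxia arrays. None of them was above background at day 7 in either genotype. Of all genes at that day, 9% in WT and 12% in HET passed on the angiogenesis arrays, and 27% and 20% on the hypoxia arrays. On the angiogenesis arrays 8 of 11 passed the background limit at day 10 and 7 at day 14 on the WT side, against 10 and 3 on the HET side. Of all 100 genes of those arrays, 76% and 79% passed in WT and 91% and 44% in HET. In the genotype test 0 of 11 and 0 of 3 tested members passed. At day 10, 9 of the 11 had a fold between genotypes, with 0 at least 2-fold higher and 1 lower in HET. Their median was 0.10, beside -0.09 over all 76 genes, of which 7.89% were 2-fold or more higher and 13.2% lower. The osteopontin gene Spp1 and the growth factor gene Tgfb1 were the list's genes above background on the most angiogenesis arrays, 4 each. Spp1 had a density of 61.3, 3653 and 11369 in WT and 251, 1606 and 9740 in HET at days 7, 10 and 14, highest at day 14 in both genotypes. Tgfb1 stood at 32.6, 631 and 917 in WT and 151, 242 and 244 in HET on these arrays. It was also on the hypoxia arrays, at 1.33, 29.6 and 129 in WT and 258, 629 and 124 in HET. There it was above background at day 14 alone. At day 10 the WT spot was the brighter on the angiogenesis arrays and the HET spot on the hypoxia arrays. For day 10 minus day 7, limma passed 2 of the 11, in a comparison in which 32.3% of 96 genes passed. They were Tnf and Spp1, both below 0 at -3.31 and -2.28. The density of each was higher at day 10, as for Csf3. Tnf, the tumour necrosis factor gene, had a density of 1112 in WT at day 14 against 199 in HET, where the HET minus WT difference was -2.29 without normalization but 0.40 after it. Between days 10 and 14 the list had 0 of 11 passing on the angiogenesis arrays, against 0% of 96 genes. On the hypoxia arrays 1 of 3 passed, Hmox1, the heme oxygenase gene, at -1.69, against 16.4% of 73 genes.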

How the data were processed

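Per the file headers, the authors deposited 1 spot density (intensity, linear scale, with no local background) for each of 112 spots of GEArray Q Series membranes, with 6 control spots each. No header or label names the image software. Per the labels, 3 ug of RNA pooled from 3 animals was amplified and labelled with biotin. The deposited series matrix holds a ratio. All 560 filled values equalled, within 0.001 of their size, density minus the array's lowest density, over the same for Actb, so scale and direction are known and nothing is centred. Column medians ran from 0.0017 to 0.75. The sample HET day 7 (angiogenesis) has 2 scanner files. One is headed WT and matches the WT file in 112 of 112 spots, and was not used.

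Background in the intensities was corrected by normexp (limma 3.58.1, R 4.3.3; offset 25.9, which is 10% of the median density), taken to log2, averaged per gene and quantile normalized within an array type. limma's lmFit and eBayes tested genotype and day in 1 additive fit over 6 arrays (2 residual degrees of freedom), two-sided, with Benjamini-Hochberg adjustment over genes above background on at least 1 array and a threshold of 0.05. Arrays of other days or of the other genotype stand in for replicates there. The number of arrays limits the precision. A difference was counted at 2-fold, as a bound where 1 array was below background, and not at all where both were below background or at the ceiling. The fit was tested on simulated data. All 8 members are named, with up to 4 genes of the inflammatory list above background on the most arrays and the 3 genes most like Il6 and Ptgs2. Tnf and Hmox1 were named after their values were seen. Members and lists were chosen with earlier results of these data known. Symbols are those of the arrays. Promoters come from RefSeq, where 6 of the 8 members matched. Alternatives were other scalings, background corrections, offsets, thresholds and filters, and leaving out a day.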

Additional observations from a re-analysis of the deposited data

Results flagged for a closer look

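Effects of opposite direction, each larger than the standard deviation of repeated spots, occurred in 2 genes between days and in 2 genes between genotypes. That standard deviation holds spot noise alone. The effects of -0.42, -0.41, -0.69 and 0.74 below are smaller than 0.79, the median disagreement of genotype differences between array types. None of these differences between effects was tested, because each rests on 1 array per genotype and day. The HET minus WT difference of Il6 was 2.91 log2 units at day 7 and 1.76 at day 10 but -2.05 at day 14. For Il1b it was 1.76 at day 10 and -0.42 at day 14, where both arrays stood at the background limit. The day 10 minus day 7 difference of Il6 was 0.74 in WT and -0.41 in HET after normalization, and without it 7.93 and 1.77. For Ptx3 it was at least 1.23 in WT and -0.69 in HET, and without normalization at least 7.79 and 4.78.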

How the results depend on the processing

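No paired analysis was possible because each group has 1 array and the labels carry no replicate numbers to pair by; the additive fit compares the genotypes within each day. The count of genes passing limma's test of genotype was 0 under every alternative on both array types, including the fits without day 7, 10 or 14. For day 10 minus day 7 on the hypoxia arrays it went from 0 to 18 with median scaling, 27 with reference gene scaling and 38 without normalization. For day 14 minus day 10 it went from 12 to 20, 38 and 33 under the same 3 scalings. On the angiogenesis arrays, day 10 minus day 7 went from 31 to 73 with reference gene scaling. Subtracting the array minimum, an offset of 50 and no filter on dim genes kept these counts within 1.5 times.

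Members at least 2-fold higher in HET numbered 2 at day 7, and 0 with 1 background threshold per array type. At day 10 the 4 higher and 0 lower became 2 and 1 with median scaling and with reference gene scaling, and 1 was lower without normalization. At day 14 the 0 higher became 2 with median scaling and 1 at 1.5-fold, and the 1 lower became 4 with reference gene scaling or no normalization and 0 with the common threshold. Members at least 2-fold higher at day 10 than at day 7 in both genotypes went from 0 to 1 with median scaling, 6 with reference gene scaling, 5 without normalization and 1 at 1.5-fold. Those lower at day 14 than at day 10 went from 3 to 7 with reference gene scaling, 5 without normalization and 0 with the common threshold. No share over all genes is given for this count or the genotype counts under the alternatives. The median gene density itself fell from day 10 to day 14. It went from 301 to 103 in WT and from 1114 to 26.0 in HET on the hypoxia arrays. On the angiogenesis arrays it went from 1738 to 1229 in WT and from 589 to 168 in HET. The common threshold left 18 of the 30 member densities above background, and a ceiling at 80% put 3 in place of 1 at the ceiling.

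These values changed direction. With median scaling, the HET minus WT difference at day 10 was -0.78 for Il1b, -0.52 for Il6 and -0.85 for Il6st, and day 14 minus day 10 was -0.26 for Il6st. At day 14 it was 0.97 with median and 0.26 with reference gene scaling for Il1a, and -1.61 with reference gene scaling and -1.58 without normalization for Ptgs2. In the genotype fit Il1b was -0.46 with median and -0.20 with reference gene scaling. With reference gene scaling and without normalization, in that order, genotype was -0.999 and -1.02 for Ccl2 and -0.15 and -0.18 for Csf3. In the same order, day 10 minus day 7 was 0.16 and 1.62 for Il1a and 2.69 and 1.53 for Csf3, and day 14 minus day 10 was -2.41 and -2.91 for Il6st and -2.02 and -0.92 for Ccl2. The cause was not tested. The change of Il1a from day 10 to day 14 kept its direction and passed under all 6 alternatives, with values from 8.14 to 10.79.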
